A study of Mus musculus with 6 samples.

Results

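The miR-210 arms are the 2 mature microRNAs (miRNAs) cut from the single mouse Mir210 hairpin, mmu-miR-210-3p and mmu-miR-210-5p (mmu for mouse, left out below). They were taken by exact name from 911 mature miRNA references listed over 6 small RNA libraries, and both were detected in every library. The libraries came from bone-marrow-derived macrophages of ApoE-KO mice (EKO, 3 libraries) and wild-type mice (WT, 3 libraries), which the series design gives as biological replicates. All mice were males aged 6 to 12 weeks, and both genotypes were cultured alike for 6 days, in medium with 10% serum, with M-CSF (25 ng/mL) added every 2 days. Apolipoprotein E is a lipid carrier secreted by macrophages, and the question of the series is which miRNAs differ without it. The labels name neither the strain background nor the knockout allele, and small RNA counts do not measure Apoe mRNA, so the genotypes rest on the labels.

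miR-210 is the miRNA most widely induced by low oxygen. Its gene is transcribed under the hypoxia-inducible factors (HIF), whose alpha subunits are degraded when oxygen is plentiful. The 3p strand is the usual guide loaded into Argonaute, and its known targets include Iscu, an iron-sulphur cluster assembly factor of mitochondria, and Efna3, an ephrin ligand. In macrophages HIF-1 is also raised by inflammatory signals without low oxygen, and it drives glycolytic metabolism.

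The sequences of both arms are shown because each arm's seed (bases 2 to 8, in capitals) sets which transcripts it can recognise.
miR-210-3p: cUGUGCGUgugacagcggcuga
miR-210-5p: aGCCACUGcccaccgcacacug
In RefSeq's table for GRCm38.p6, which holds 1679 mature mouse miRNAs by name, 1 miRNA carried each of these seeds, the arm itself. miR-210-3p therefore shares its seed with no other miRNA of that table. Both arms are 22 bases long and rich in G and C, with a GC content of 63.6% for miR-210-3p, above that of 82.4% of the table, and 68.2% for miR-210-5p, above that of 92.1%.

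The hairpin is shown to place the arms, which are in capitals, the 5p arm first.
Mir210: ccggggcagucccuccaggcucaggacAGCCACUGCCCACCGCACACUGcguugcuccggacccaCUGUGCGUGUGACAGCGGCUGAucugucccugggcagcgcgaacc
It lies on the minus strand at chr7:141221384-141221493 of GRCm38.p6, the build of the RefSeq table. The deposited counts carry no coordinates and their build is mm9. In the GENCODE M21 annotation no other gene overlaps the hairpin, which stands between Rassf7 and Phrf1. In the minimum free energy fold predicted from this sequence (-48 kcal/mol), 16 of the 22 bases of the 3p arm paired with bases of the 5p arm, and 6 of the 7 seed bases of each arm were paired. Of the reads on either arm none matched a second reference, since the total and the multimap-adjusted counts were equal in all 6 libraries. No read was listed on the miR-210 stem-loop outside the arms.

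Libraries held 34651516 to 41331600 reads on mature miRNAs, the fewest in EKO replicate 1. The mature miRNAs listed were 543, 577 and 591 in the EKO libraries and 686, 668 and 698 in the WT libraries. Distinct read sequences on them were 48275, 54098 and 57650 (EKO) and 62650, 62572 and 67508 (WT). Every EKO library was thus less diverse than any WT library, EKO replicate 1 the least. The part of this difference in the miR-210 values was not tested. The macrophage label was set beside a myeloid list of miR-21a-5p, the miR-142a arms and the miR-223 arms. Together they summed to between 141335 and 168553 reads per 1e+06 mature miRNA reads (CPM) in EKO and between 213422 and 226615 in WT, nearly all of it miR-21a-5p. Resting almost wholly on that miRNA, the sum could not check the macrophage label. The members did not all go one way, since miR-223-5p had higher values in every EKO library than in any WT library (means of 2761 and 2042 CPM, log2 fold change 0.46, edgeR adjusted p = 0.0766). Summed levels of the liver list (miR-122-5p) were higher in every EKO library than in every WT library, and those of the lymphoid, endothelial and stromal lists were lower, each at an exact two-sided permutation p of 0.1, the smallest that 3 against 3 libraries allow. Over the 575 single miRNAs tested, all EKO values lay above all WT values for 11.8% and below them for 17.7%. Erythroid miRNAs, of interest because red cell precursors also express miR-210, summed to between 117 and 145 CPM in EKO and between 127 and 160 in WT, over overlapping ranges. Nearly all of this was the joint entry miR-486a-5p/miR-486b-5p, with means of 125 and 140 CPM and a log2 fold change of -0.14 ± 0.18 (SE). Of the others, miR-144-3p was at 0 in all libraries, and miR-451a stood at 5.92, 5.31 and 1.29 CPM in EKO and at 0, 0 and 0.587 in WT. The part of any of these lists in the miR-210 values was not tested.

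miR-210-3p was a moderately abundant miRNA that had lower values in EKO macrophages. Its level was 274, 353 and 396 CPM in the EKO libraries and 431, 465 and 438 CPM in the WT libraries. The groups did not overlap, with every EKO value under every WT value, which was also so for 17.7% of the 575 miRNAs tested. The closest libraries of different genotype, EKO replicate 3 and WT replicate 1, were 34.8 CPM apart, less than the 61.8 CPM SD of the EKO libraries. Means were 341 ± 61.8 CPM (EKO) and 445 ± 18.2 CPM (WT) with the SD of 3 libraries, 1.30-fold higher in WT. The log2 fold change of EKO over WT was -0.36 ± 0.14 (SE), and it did not pass the test over all miRNAs (unadjusted p = 0.0354, adjusted p = 0.185, edgeR quasi-likelihood test).

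That test called 0 of 575 miRNAs (0%) at an adjusted p of 0.05, where DESeq2 called 92 and limma-voom 32, neither with miR-210-3p among them. At an unadjusted p under 0.05 edgeR had 123 miRNAs, of which those lower in EKO made 13% of all tested and those higher 8.35%. There were 110 miRNAs with a p as small as that of miR-210-3p or smaller. Over all tested miRNAs the log2 fold change had a median of -0.16, and 40.2% lay below the value of miR-210-3p. Small RNA was taken from whole cultures, so fewer cells with miR-210-3p and less of it per cell cannot be told apart.

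**Figure D1:**
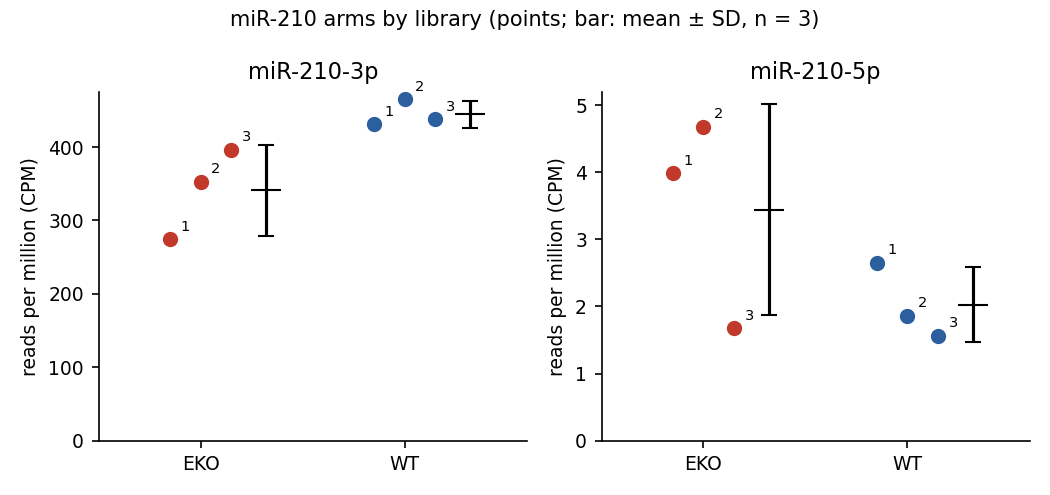
Level of each miR-210 arm (CPM, reads per 1e+06 mature miRNA reads, vertical axes from 0) in each library, numbered by replicate, with mean ± SD of 3 libraries beside the points. The 3p arm was at 274 to 396 CPM in EKO and 431 to 465 in WT, while the ranges of the 5p arm overlapped.

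The spread between libraries of miR-210-3p was far larger than read counting gives. The arm had 9507 to 14699 reads per EKO library and 16574 to 19236 per WT library, for which counting alone gives an SD of 0.721% to 1.03% of the level. The coefficient of variation between replicates was 18.1% in EKO and 4.10% in WT. EKO replicate 1 was the lowest of the 6 libraries, and without it the log2 fold change was -0.25 ± 0.15 (SE, adjusted p = 0.379, edgeR).

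By mean level over the 6 libraries miR-210-3p ranked 78 of 911 references, and its rank within single libraries was between 76 and 89. Kits for small RNA ligate some sequences better than others, so levels of different miRNAs are not on a common scale and these ranks are those of the reads. Just above it stood miR-27b-5p, with means of 454 ± 64.2 CPM (EKO) and 540 ± 40.3 CPM (WT), and miR-425-5p, at 451 ± 17.6 and 413 ± 27.9 CPM (SD, n = 3 each). Just below stood miR-16-5p, which restrains cell cycle genes, at 296 ± 94.5 and 464 ± 99.6 CPM, and miR-17-5p of the proliferation-linked miR-17-92 cluster, at 231 ± 85.7 and 502 ± 122 CPM. The EKO and WT means of miR-210-3p lay within 1 SD of miR-16-5p in both genotypes. The most abundant miRNA, let-7i-5p, averaged 192801 CPM against 393 CPM for miR-210-3p.

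The 5p arm was scarce and ranked 378 of the 911 references. miR-210-5p had 138, 185 and 62 reads in the EKO libraries and 102, 77 and 64 in the WT libraries. Its level was 3.98, 4.68 and 1.67 CPM in EKO and 2.65, 1.86 and 1.56 CPM in WT. EKO replicates 1 and 2 were the highest libraries, while EKO replicate 3 lay among the WT libraries, so that the groups overlapped. Means were 3.44 ± 1.57 CPM in EKO and 2.03 ± 0.563 CPM in WT (SD, n = 3 each), and the fitted log2 fold change was 0.80 ± 0.87 (SE; edgeR, adjusted p = 0.756). The difference was smaller than its standard error, and counting alone gives an SD of 7.35% to 12.7% per library against coefficients of variation of 45.7% in EKO and 27.8% in WT. EKO replicates 1 and 2 also had the most miR-451a, as given above, whereas miR-486a-5p/miR-486b-5p, at 139, 112 and 124 CPM for EKO and 160, 127 and 135 CPM for WT, did not follow that order. A link of either erythroid entry with miR-210-5p was not tested.

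The arm ratio asks whether the strands of the hairpin were retained in the same proportion in both genotypes. miR-210-3p dominated in all libraries, with 68.9, 75.4 and 237 reads for each read of miR-210-5p in EKO and 162, 250 and 280 in WT. As a share, the 3p arm took 98.6% (95% Wilson interval 98.3% to 98.8%), 98.7% (98.5% to 98.9%) and 99.6% (99.5% to 99.7%) of the reads on both arms in EKO. In WT it took 99.4% (99.3% to 99.5%), 99.6% (99.5% to 99.7%) and 99.6% (99.5% to 99.7%). Reads were not collapsed by molecular barcode, so these intervals cover counting error only. EKO replicates 1 and 2 were the lowest libraries, and EKO replicate 3 lay between WT replicates 1 and 2.

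On a log2 scale with 0.5 reads added to each arm, the ratio of 3p to 5p was 6.74 ± 0.99 for EKO and 7.80 ± 0.41 for WT (SD, n = 3 each). The difference of -1.07 was not distinguishable from the spread between replicates (two-sided exact permutation p = 0.2, smallest possible 0.1). In a limma fit over 221 arm pairs the standard error of this difference was 0.67 (adjusted p = 0.542). That fit called 4 pairs (1.81%) and had 10.4% of pairs at an unadjusted p under 0.05, while miR-210 was at an unadjusted limma p of 0.172. The groups did not overlap in 20.8% of pairs, and for miR-210 they did overlap. Without EKO replicate 3 the difference was -1.64 ± 0.53 (SE, unadjusted p = 0.0361, adjusted p = 0.458, limma). This was the only 1 of 10 alternatives of that fit with an unadjusted p under 0.05, and it drops the EKO library within the WT range. The difference was -0.75 ± 0.75 without EKO replicate 1 and -0.81 ± 0.80 without EKO replicate 2 (SE, unadjusted p = 0.374 and 0.362, limma).

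**Figure D2:**
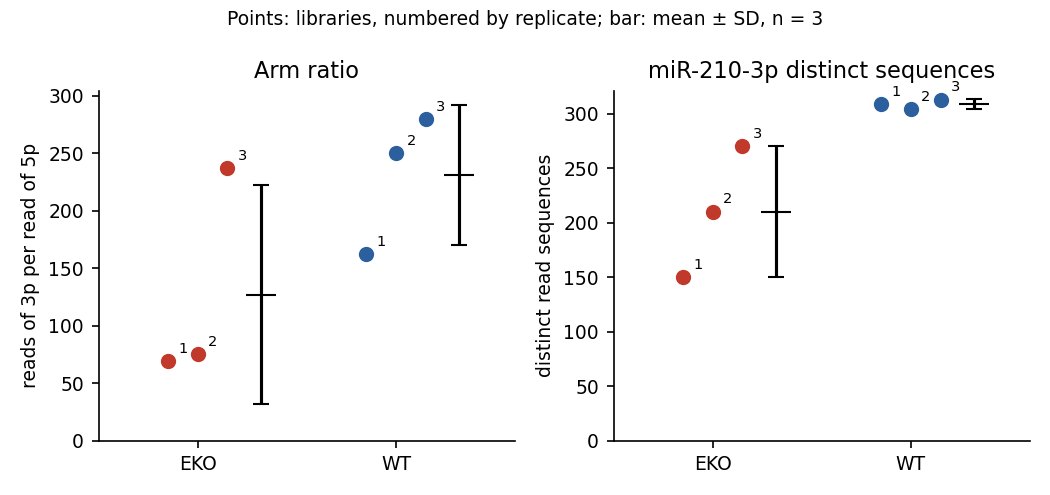
Left, reads of miR-210-3p for each read of miR-210-5p, and right, the number of distinct read sequences counted on miR-210-3p, in each library numbered by replicate, with mean ± SD of 3 libraries. EKO replicate 3 had an arm ratio of 237, within the WT range of 162 to 280, and fewer distinct sequences than any WT library.

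The point estimates of the arms had opposite signs, lower in EKO for 3p and higher for 5p, and neither passed the test. Of the 118 arm pairs in which both arms were tested, 59 (50%) had log2 fold changes of opposite sign, and in 27 of them (22.9% of all pairs) the 3p arm was the lower one as for miR-210.

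Among 117 arm pairs whose arms together averaged at least 10 CPM, 53 had more reads on the 3p arm and 19 were more one-sided towards 3p than miR-210. The pairs whose mean log2 ratio lay nearest its value of 7.27 were miR-148b (7.28), miR-151 (7.37) and miR-222 (7.45). Their 5p arms averaged 12.4, 85.5 and 211 CPM, against 2.74 CPM for miR-210-5p. None of these 3 pairs was called between genotypes (adjusted p = 0.657, 0.674 and 0.928, limma). The SD of the log2 ratio within genotypes was 0.758 for miR-210, against a median of 0.789 over the 117 pairs and 1.44 over the 35 pairs whose weaker arm averaged 1 to 10 CPM.

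The tables also give the number of distinct read sequences behind each count, which the choice of members did not use. miR-210-3p reads had 150, 210 and 270 distinct sequences in EKO and 309, 304 and 313 in WT. No EKO library reached the lowest WT library (means of 210 ± 60 and 309 ± 4.51, SD, n = 3 each, exact permutation p = 0.1). This separation was common, since 32.5% of tested miRNAs showed it in this direction and 1.22% in the other. As a part of all distinct sequences of a library, miR-210-3p took 3891 ± 788 per 1e+06 in EKO and 4809 ± 154 per 1e+06 in WT, with overlapping groups (exact permutation p = 0.2). The number of reads for each distinct sequence was 61.4 ± 6.22 in EKO and 58.0 ± 4.87 in WT (exact permutation p = 0.4). Among 41 other references averaging 200 to 800 CPM, the median number of distinct sequences was 161, 185 and 195 in EKO and 224, 213 and 260 in WT. These medians were thus also lower in every EKO library. miR-210-3p lay below the median of its library in EKO replicate 1 only.

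miR-210-5p rested on 9, 12 and 6 distinct sequences in EKO and on 6, 8 and 9 in WT. Medians of 6 to 11 over the libraries were found for 247 other references averaging 1 to 10 CPM, so that the 5p arm was typical of its level in this respect.

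GC content moved with the comparison, and miR-210-3p lay below its trend. Over 221 miRNAs averaging at least 10 CPM with a sequence in the table, the log2 fold change correlated with GC content at Pearson r = 0.31 and Spearman rho = 0.3, a description across miRNAs of the same 6 libraries. Those below 50% GC (112 miRNAs) had a median log2 fold change of -0.28. The 39 with at least 60% GC, a limit chosen after the values were seen, had a median of 0.07, with 21 higher and 18 lower in EKO. miR-210-3p, with 63.6% GC, stood at -0.33 in this fit, and 9 of the 39 had a more negative value. With each library's trend with GC content removed, its log2 fold change was -0.46 ± 0.16 (SE, unadjusted p = 0.0143, adjusted p = 0.0641, edgeR quasi-likelihood test), which did not pass. The part of GC content in the values of miR-210-5p was not tested, since its mean lay below 10 CPM.

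**Figure D3:**
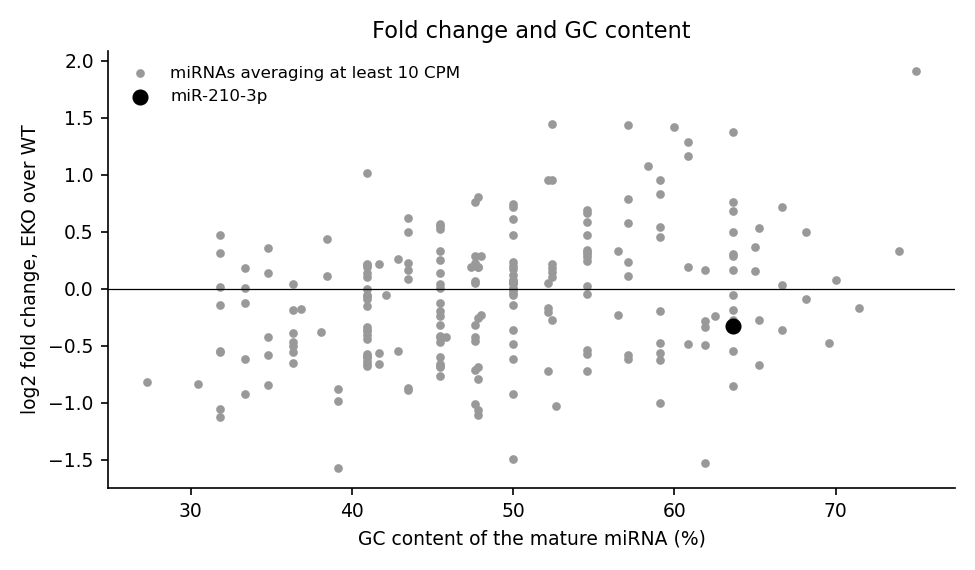
GC content of the mature miRNA (horizontal axis, %) against the log2 fold change of EKO over WT (vertical axis) for 221 miRNAs averaging at least 10 CPM. miR-210-3p, the black point at 63.6% and -0.33, lies below the median of 0.07 of miRNAs with at least 60% GC.

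Other miRNAs reported to rise in hypoxic cells were set beside miR-210-3p, as a list of 21 that holds neither arm. Of the 19 that were tested, 18 had a negative log2 fold change and 1 a positive one (17 and 2 with DESeq2 size factors, where miR-24-3p turned), and 58.3% of all tested miRNAs had a negative value. None of the 19 passed over all miRNAs, where the background was 0%. At an unadjusted p under 0.05 there were 11 lower and 0 higher members (background 13% and 8.35%), and for 12 the EKO values were all under the WT values (background 17.7%). The list had a median log2 fold change of -0.65, with values between -1.49 and 0.20, against -0.16 for all tested miRNAs. These backgrounds cover miRNAs of every level and GC content, unlike the list. Of the 19, 18 averaged at least 10 CPM, where edgeR called 32 of 251 miRNAs lower and 27 higher, with 8 lower and 0 higher in the list. Most members with a known sequence had under 50% GC, a class with a median of -0.28 among miRNAs averaging at least 10 CPM. No background matched to the list in level and GC content was taken. miR-210-3p, at -0.36, was closer to 0 than the median of the list, without correction for GC content. In the fit of miRNAs averaging at least 10 CPM with the GC trend removed, it stood at -0.46. There miR-21a-5p (-0.13), miR-26a-5p (-0.40), miR-181b-5p (-0.30) and miR-322-5p (-0.39) moved from below it to above it. No member moved the other way, so its place in the list depended on this correction. The list was written with earlier results of these data known, so its direction is no independent evidence. DESeq2 called 9 of the 19, all lower, where it called 8.52% of all tested miRNAs lower and 7.48% higher. The limma-voom fit called 6, all lower, against 4% lower and 1.57% higher over all tested.

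The members with the smallest p were miR-21a-5p, a repressor of Pdcd4, with means of 151420 ± 13398 CPM (EKO) and 217886 ± 7115 CPM (WT), a log2 fold change of -0.50 (SD, n = 3 each), and miR-125b-5p, at 153 ± 21.3 and 244 ± 25.6 CPM (-0.65). The other two were miR-23a-3p, at 416 ± 130 and 869 ± 220 CPM (-1.04), and miR-93-5p of the Mcm7 intron, at 404 ± 69.4 and 693 ± 149 CPM (-0.75). For each of these 4 the adjusted p was 0.0766 (edgeR). The single member with a positive value was miR-192-5p, a p53-responsive miRNA, with means of 370 ± 26.6 CPM (EKO) and 328 ± 29.2 CPM (WT), a log2 fold change of 0.20 ± 0.13 (SE).

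**Figure D4:**
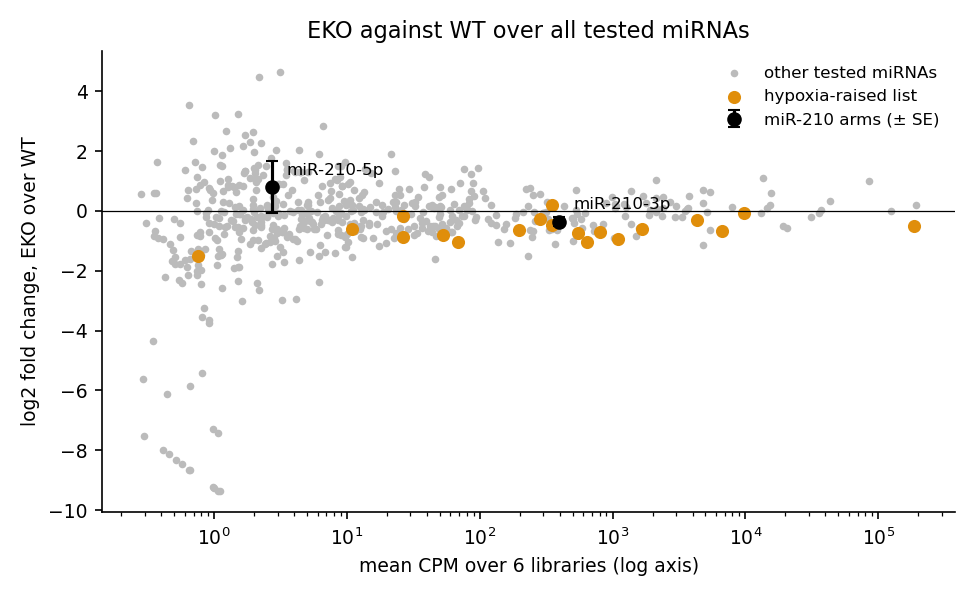
Mean level over 6 libraries (CPM, log axis) against the log2 fold change of EKO over WT for 575 tested miRNAs, with the hypoxia-raised list in orange and both miR-210 arms in black with their standard errors. Without correction for GC content the 3p arm, at -0.36, lies above most of the list, whose median is -0.65. The error bar of the 5p arm reaches 0.

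A second list held 11 miRNAs reported to target transcripts of HIF subunits or of Hif1an, the hydroxylase that inhibits HIF. Of these 10 were detected and 9 tested, with 7 negative and 2 positive log2 fold changes, a median of -0.91 and none past the adjusted threshold. The share of negative values over all tested miRNAs was 58.3%, and their median -0.16. At an unadjusted p under 0.05, 3 members were lower and 1 was higher, where the background was 13% and 8.35%. The lower members were miR-17-5p (log2 fold change -1.09, adjusted p = 0.0766), miR-20a-5p, with means of 327 ± 145 CPM (EKO) and 672 ± 237 CPM (WT), a log2 fold change of -1.02 (adjusted p = 0.105), and miR-107-3p, which is in both lists, at 37.4 ± 3.16 and 67.7 ± 25.4 CPM (-0.82, adjusted p = 0.122, all edgeR). miR-184-3p was the higher one, with means of 14.5 ± 2.17 CPM (EKO) and 4.73 ± 2.54 CPM (WT), a log2 fold change of 1.63 (adjusted p = 0.138, edgeR). DESeq2 called 3 of the 9 members, 2 lower and 1 higher (background 8.52% and 7.48%), and limma-voom called 1, a lower one (background 4%).

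The miRNAs whose levels followed miR-210-3p most closely over the 6 libraries were ranked by Pearson correlation of log2(CPM + 0.5), among 250 others averaging at least 10 CPM. They were miR-155-5p (r = 0.98, Spearman rho = 0.94), miR-18a-5p (r = 0.98, rho = 1), miR-30e-5p (r = 0.96, rho = 0.94), let-7c-1-3p (r = 0.94, rho = 0.89) and miR-186-5p (r = 0.93, rho = 0.83). These are descriptions over 6 points that share the genotype contrast and each library's capture. Because these miRNAs were picked for following miR-210-3p, likenesses in the order or spread of libraries are favoured by that choice. The median r of the 250 was 0.36, with 15 above 0.9 and 15 below -0.9.

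The sequences of these miRNAs are given with their seeds in capitals, to show that the seeds differ.
miR-155-5p: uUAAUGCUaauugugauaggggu
miR-18a-5p: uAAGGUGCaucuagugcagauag
miR-30e-5p: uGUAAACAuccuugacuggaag
let-7c-1-3p: cUGUACAAccuucuagcuuucc
miR-186-5p: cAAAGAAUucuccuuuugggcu
With miR-210-3p they made 6 miRNAs with 6 different seeds. Their GC content was between 34.8% and 45.5%, below the 63.6% of miR-210-3p.

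miR-155-5p, which Toll-like receptor signals induce and which is in both lists, was at 7.45, 17.4 and 30.7 CPM (EKO libraries) and at 34.5, 34.5 and 33.2 CPM (WT libraries). It had its lowest value in EKO replicate 1 and little spread among the WT libraries, as did miR-210-3p. miR-18a-5p of the miR-17-92 cluster, which is in the HIF-targeting list, was at 4.53, 11.0 and 11.7 CPM (EKO libraries) and at 13.8, 19.4 and 18.2 CPM (WT libraries), in the same order of libraries as miR-210-3p. Neither passed the test (log2 fold change -0.88 ± 0.44 and -0.91 ± 0.43, SE, adjusted p = 0.323 and 0.287, edgeR). miR-30e-5p was at 292, 450 and 528 CPM (EKO libraries) and at 645, 659 and 807 CPM (WT libraries), a log2 fold change of -0.71 (adjusted p = 0.0848, edgeR). miR-186-5p, with means of 275 ± 69.0 CPM (EKO) and 423 ± 54.0 CPM (WT), and let-7c-1-3p, at 23.2 ± 15.2 and 40.4 ± 9.48 CPM (SD, n = 3 each), did not pass either (adjusted p = 0.0994 and 0.43, edgeR).

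**Figure D5:**
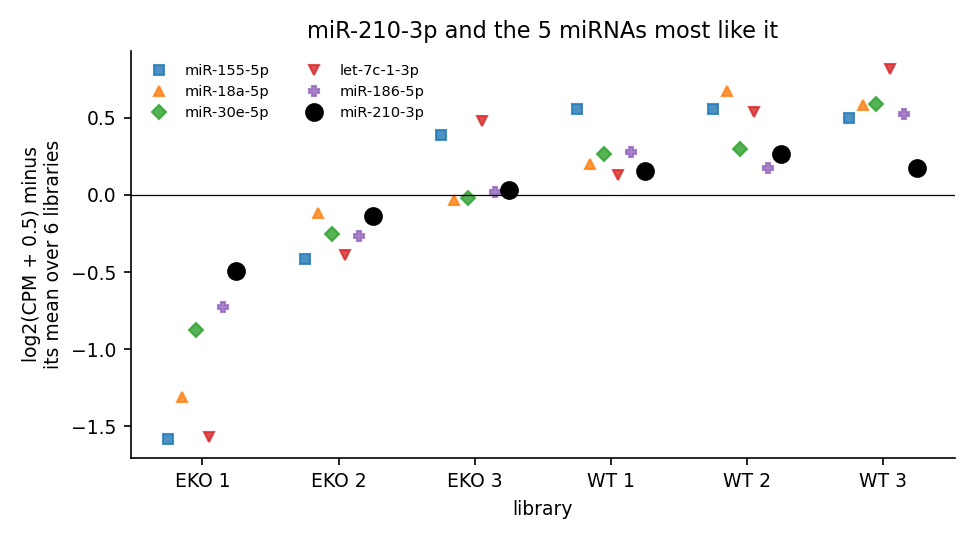
Level of miR-210-3p (black) and of the 5 miRNAs most like it in each library, as log2(CPM + 0.5) minus the miRNA's own mean over the 6 libraries. All 6 have their lowest value in EKO replicate 1, a likeness that the choice by correlation favours. miR-210-3p varies least, by 1.70-fold between its lowest and highest library.

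Of the 18 hypoxia-raised miRNAs averaging at least 10 CPM, 17 had a positive r with miR-210-3p, with a median of 0.86 and a lowest value of -0.18. Since miR-210-3p and most of these miRNAs had lower values in EKO, this likeness repeats the genotype contrast and was given no test.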

How the data were processed

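Small RNA libraries were made from column-purified total RNA with an NEB small RNA kit, per the labels. Per the file headers, each deposited table holds an estimated count that divides reads matching several references, a total count that does not divide them, a count of distinct read sequences, and a barcode count, which was 0 throughout. The authors' deposited estimated counts were rounded for count models. The build was mm9 per the submitters' processing notes. The aligner is not given in the sources used here. Stem-loop references (at most 0.00161% of reads) were left out, and an unlisted miRNA was taken as 0.

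Levels are CPM, counts per 1e+06 mature miRNA reads. All miRNAs were fitted with edgeR 4.0.16 (R 4.3.3, TMM, filterByExpr, glmQLFit and glmQLFTest on genotype, Benjamini-Hochberg threshold 0.05). The SE is the log2 fold change divided by the square root of F. Arm pairs were fitted with limma 3.58.1. The fits were tested on simulated data. Hairpins were folded with RNAfold 2.7.2. Of 911 references, 757 matched the RefSeq table by name.

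The arms and lists were chosen with earlier results of these data known. Named miRNAs are both arms, the 2 neighbours by level on either side, the most abundant, the 5 most correlated, the 3 nearest arm pairs and, from each list, the 4 members of smallest p. miR-192-5p was singled out after its value was seen. Alternatives were DESeq2 1.42.0, limma-voom, other normalizations and filters, total reads, GC correction, leaving out each library, and a replicate block.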

Additional observations from a re-analysis of the deposited data

How the results depend on the processing

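The log2 fold change of miR-210-3p kept its sign and stayed short of a call in all 18 alternatives, from -0.46 to -0.25 (adjusted p from 0.0641 to 0.471), as did that of miR-210-5p in 16, from 0.56 to 1.14. miR-210-5p gave no value under the filters on mean CPM. The arm ratio difference kept its sign in all 10 alternatives of each test, from -1.64 to -0.75 with libraries left out in turn, and the 3p share differed by -0.598 percentage points.

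Counts of called miRNAs moved from 0, and the cause was not tested. The values that follow are for all miRNAs, for the hypoxia-raised list and for the HIF-targeting list, in this order. Of 575, 19 and 9 tested, DESeq2 called 92, 9 and 3, and limma-voom 32, 6 and 1. The numbers tested changed with the filter. Without a filter on low counts edgeR called 52 of 910, 8 of 21 and 2 of 10. With 10 or more reads required in each library it called 43 of 370, 8 of 18 and 1 of 7. Restricted to miRNAs averaging 10 CPM or more it called 59 of 251, 8 of 18 and 2 of 5. With the GC trend also removed it called 40, 6 and 1 of the same numbers. Leaving out each library gave 0 to 45, 0 to 8 and 0 to 2. Of the 6 libraries only EKO replicate 3 gave calls when left out (45 of 634, 8 of 20 and 2 of 9). The other normalizations, the total read counts and leaving out the 3 most abundant miRNAs gave 0.

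The replicate numbers gave no pairing. Correlations between libraries of 1 number, after subtracting each group's mean, were -0.1, -0.04 and -0.02, and each EKO library was most like a WT library of another number. With the replicate block the calls were 62 of 575, 10 of 19 and 2 of 9. With this block miR-210-3p stood at -0.37 (edgeR adjusted p = 0.132), miR-210-5p at 0.70 and the arm ratio at -1.07 (limma adjusted p = 0.484).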
